A study of Mus musculus with 6 samples.

Results

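The genes described here encode the presynaptic machinery that stores, docks, fuses and recycles synaptic vesicles. The 34 members were taken by gene symbol, by a rule that uses no measured value, from the 26264 symbols counted in each library. The list itself was chosen with earlier results of these data known. All 34 were in the files, and all 34 passed the filter on low counts. Their expression was read from total RNA, depleted of ribosomal RNA and sequenced, of basolateral amygdala dissected from male mice. The basolateral amygdala receives cortical and thalamic input and is known for its role in fear and anxiety. The 3 control libraries (Ctrl) came from animals that were not stressed, and the 3 stress libraries (CRS) from animals under Chronic Restrained Stress, in which an animal is repeatedly held immobile. Both groups share tissue, sex and protocol, and their libraries are described as biological replicates. Strain, age, the length of the stress and any pooling of tissue were not stated.

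At a nerve terminal, vesicles filled with transmitter are tethered near the membrane, docked and primed at the active zone, and fused when calcium enters. Fusion is driven by SNARE proteins: VAMP on the vesicle zips together with syntaxin and SNAP-25 on the plasma membrane. Synaptotagmins sense the calcium, the ATPase NSF takes the SNARE complexes apart, and endocytosis retrieves the vesicle membrane for the next round.

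The libraries held 9859449 to 10233706 counts in genes, and the lowest count of any member in any library was 105 (Sv2c in stress 1). Some libraries stood apart in markers of neighbouring tissue. Summed over 11 choroid plexus and ependymal markers, all of them detected in every library, the level was 2348, 4167 and 50 CPM (a gene's counts scaled to a common library size) in controls 1 to 3 and 19.1, 5996 and 32.0 CPM in stress 1 to 3. Controls 1 and 2 and stress 2 were thus far above the other libraries. Summed over 15 striatal and central amygdala markers, control 1 was highest at 1923 CPM and stress 1 lowest at 290.0 CPM, against 906 to 1138 CPM in the other libraries. One of these markers, Isl1, had no count in stress 1. Of 10 glutamatergic and basolateral amygdala markers, all 10 were detected in every library. They summed to 2214, 2637 and 2923 CPM in controls and to 2948, 2673 and 3061 CPM under stress. The tissue label thus had its defining markers Slc17a7 and Camk2a in every library, each at 719 CPM or more.

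The members spanned a wide range of levels. Per kilobase of exon, Snap25 was the most abundant, at 246 CPM per kilobase in controls and 269 under stress, followed by the vesicle membrane protein gene Syp at 208 and 223 and by Syt1 at 183 and 203. The complexin gene Cplx2 stood at 175 and 176 and the vesicle GTPase gene Rab3a at 152 and 164 CPM per kilobase. At the other end were Syt2 at 3.18 and 1.93, Syn3 at 3.36 and 3.26, Unc13b at 4.92 and 6.04, Vamp1 at 5.53 and 5.18 and Sv2c at 5.87 and 3.56 CPM per kilobase. Neighbours in this order often did not differ beyond the spread between libraries: in controls the ranges of Syp and Syt1 overlapped, while Snap25 and Syt2 were far apart in every library. In several families 1 member had the higher level per length in both groups, as with Vamp2 over Vamp1, Syt1 over Syt2 and Unc13a over Unc13b and Unc13c. Exon lengths come from an annotation of another genome build and include exons that may not be used in this tissue, so levels per length are approximate.

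**Figure D1:**
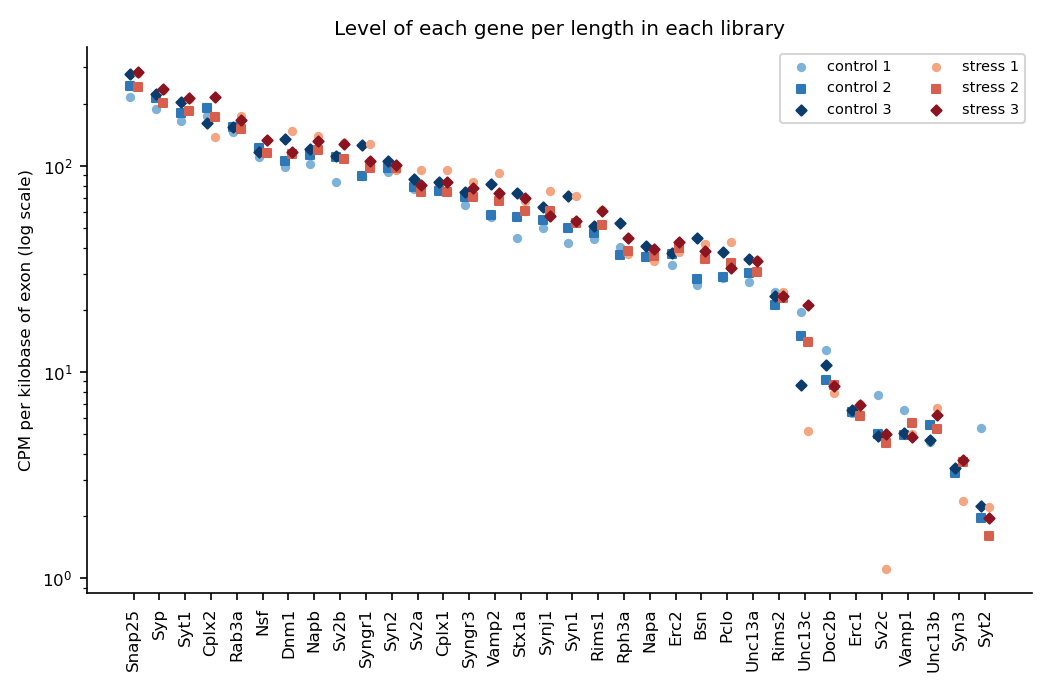
CPM per kilobase of exon (log scale) of the 34 genes, ordered by the control mean, with 1 point per library (blue, controls; red, stress). Snap25 is at the top and Syt2 at the bottom, and the points of Sv2c, Unc13c and Syt2 are the most spread.

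The comparison of stress with control asks whether this machinery is expressed differently in the amygdala of stressed animals. Of the 34 genes, 25 had a log2 fold change above 0 and 9 below (73.5% higher, against 48.4% of all 14739 tested genes), with a median log2 fold change of 0.11 against -0.0044 over all tested genes. The log2 fold changes ran from -0.72 to 0.30. The members with the smallest unadjusted p were Rims1 and Unc13b, higher under stress at 0.28 ± 0.09 and 0.30 ± 0.11 (log2, SE), and Doc2b, lower at -0.38 ± 0.12. Beside these values stand those of cell type markers: all 10 glutamatergic and basolateral amygdala markers had a log2 fold change above 0 (median 0.14), and all 14 oligodendrocyte markers one below 0 (median -0.38). Pan-neuronal markers were above 0 in 7 of 10 (70.0%, median 0.05), a share near that of the members. All 15 striatal and central amygdala markers were below 0 (median -0.99). Their part in the members' values was not tested. In bulk tissue, fewer cells of a type and less RNA per cell cannot be told apart.

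No member passed the test. The lowest adjusted p among the members was 0.997 (edgeR quasi-likelihood test, Benjamini-Hochberg adjustment over all genes), and 0.0% of all tested genes passed. Before adjustment, 4 members had p under 0.05 (3.37% of all tested genes, 496 genes). Of these 3 were higher (Rims1, Unc13b and Napb; 1.33% of all tested genes) and 1 lower (Doc2b; 2.04%). This count changed with the libraries left out. It was 1 without control 1 (1.56% of all tested genes), 3 without control 2 (3.2%) and 10 without control 3 (5.19%). For the stress libraries it was 3 without stress 1 (2.54%), 7 without stress 2 (6.44%) and 2 without stress 3 (3.99%). Without control 1 and stress 1 together it was 0 (1.39%). All 3 stress libraries lay above all 3 controls in 2 members, Rims1 and Erc2, where 3.80% of tested genes did, and below them in 1 member, Doc2b, where 4.48% did (8.28% in either direction). DESeq2, limma-voom and edgeR's likelihood ratio test also passed 0 members. Unadjusted p was under 0.05 for 5 members in DESeq2 (1.99% of all tested genes), 4 in limma-voom (3.44%) and 3 in the likelihood ratio test (2.27%).

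**Figure D2:**
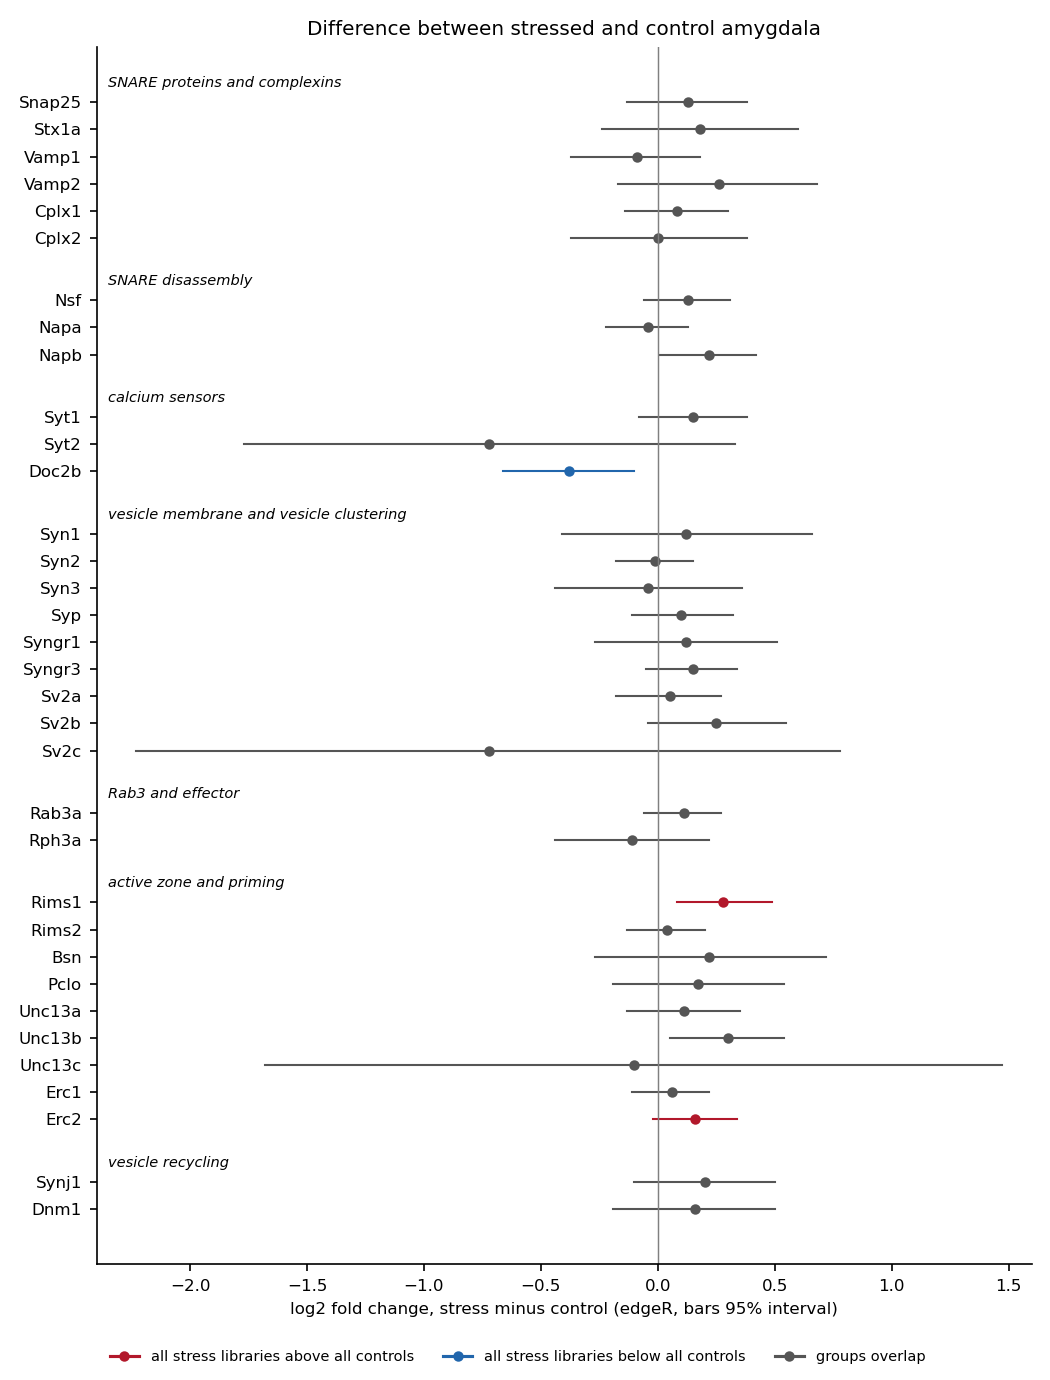
Log2 fold change of each gene, stress minus control, with its 95% interval from the edgeR fit (3 libraries per group), by role. Most points lie between 0 and 0.30; the intervals of Rims1, Unc13b, Napb and Doc2b leave out 0 before adjustment, and those of Syt2, Sv2c and Unc13c are the widest.

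The libraries of a group differed among themselves in a shared direction. Control 1 was the lowest of the 3 controls for 22 of the 34 members (29.1% of all tested genes), and control 3 the highest for 25 (35.6% of all tested genes). Among the stress libraries, stress 2 was the lowest for 22 members (31.4% of all tested genes). For 17 members, among them Snap25, Syp, Syt1, Vamp2, Syn1, Bsn and Dnm1, control 3, stress 1 and stress 3 all lay above control 1, control 2 and stress 2, an order that 8.94% of all tested genes showed; the reverse order was seen in 0 members and 11.9% of all tested genes. The summed level of the members was 13784, 14880 and 16602 CPM in controls 1 to 3 and 17282, 15136 and 17012 CPM in stress 1 to 3. The 3 libraries with the lower sums within this order are those with the high choroid plexus markers, and the summed glutamatergic markers had the same 3 libraries at the bottom. The part of these markers in the members' values was not tested.

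**Figure D3:**
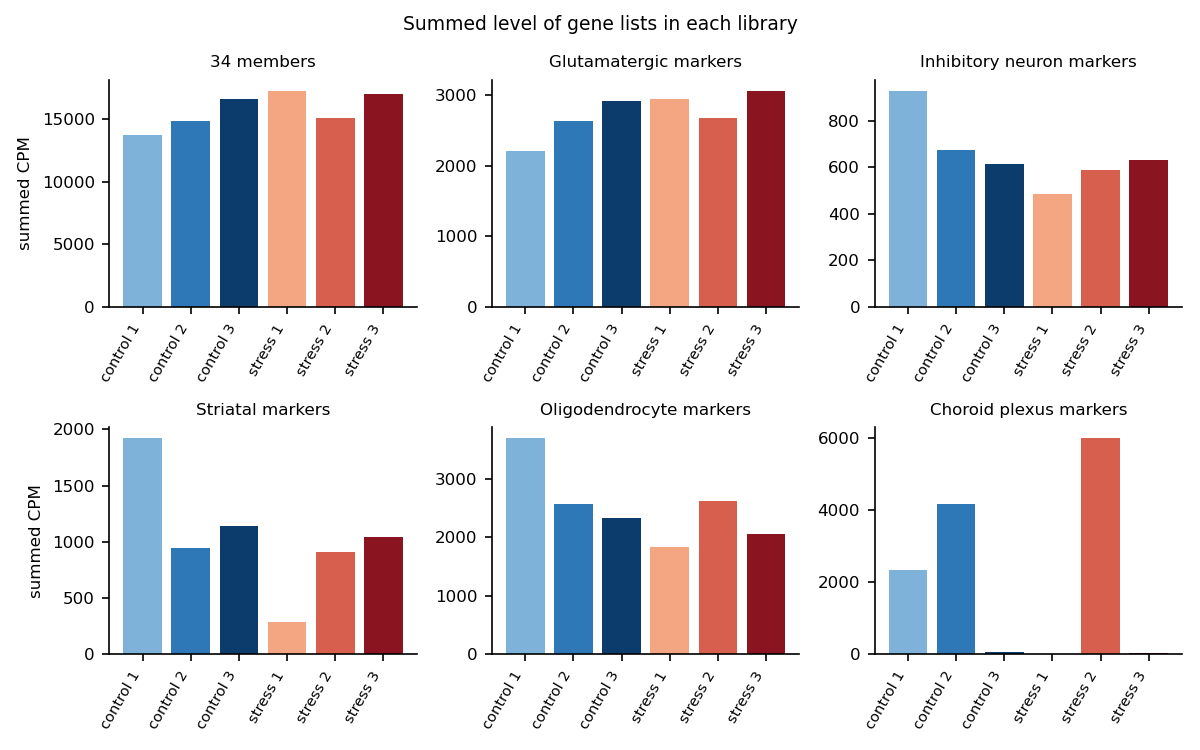
Summed CPM of the 34 genes and of 5 marker lists in each library (blue, controls; red, stress; bars start at 0). The members and the glutamatergic markers are lowest in controls 1 and 2 and stress 2, the libraries with high choroid plexus markers; striatal markers are highest in control 1 and lowest in stress 1.

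Comparing libraries with like choroid plexus levels, a split chosen after seeing the data, stress 2 lay above both control 1 and control 2 while stress 1 and stress 3 lay above control 3 for 5 members, Rims1, Erc2, Napb, Syngr3 and Syt1 (10.1% of all tested genes). The opposite held for Doc2b and Syt2 (10.3% of all tested genes). For Syngr3, control 2 and stress 2 were equal to rounding, both at 146.3 CPM. In the fit of the 3 libraries with high choroid plexus markers 21 members were higher under stress, with a median of 0.07. In the fit of the 3 libraries with low ones 19 were higher, with a median of 0.03. In each of these fits 1 group has a single library, whose spread is assumed to be like that of the other group.

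**Figure D4:**
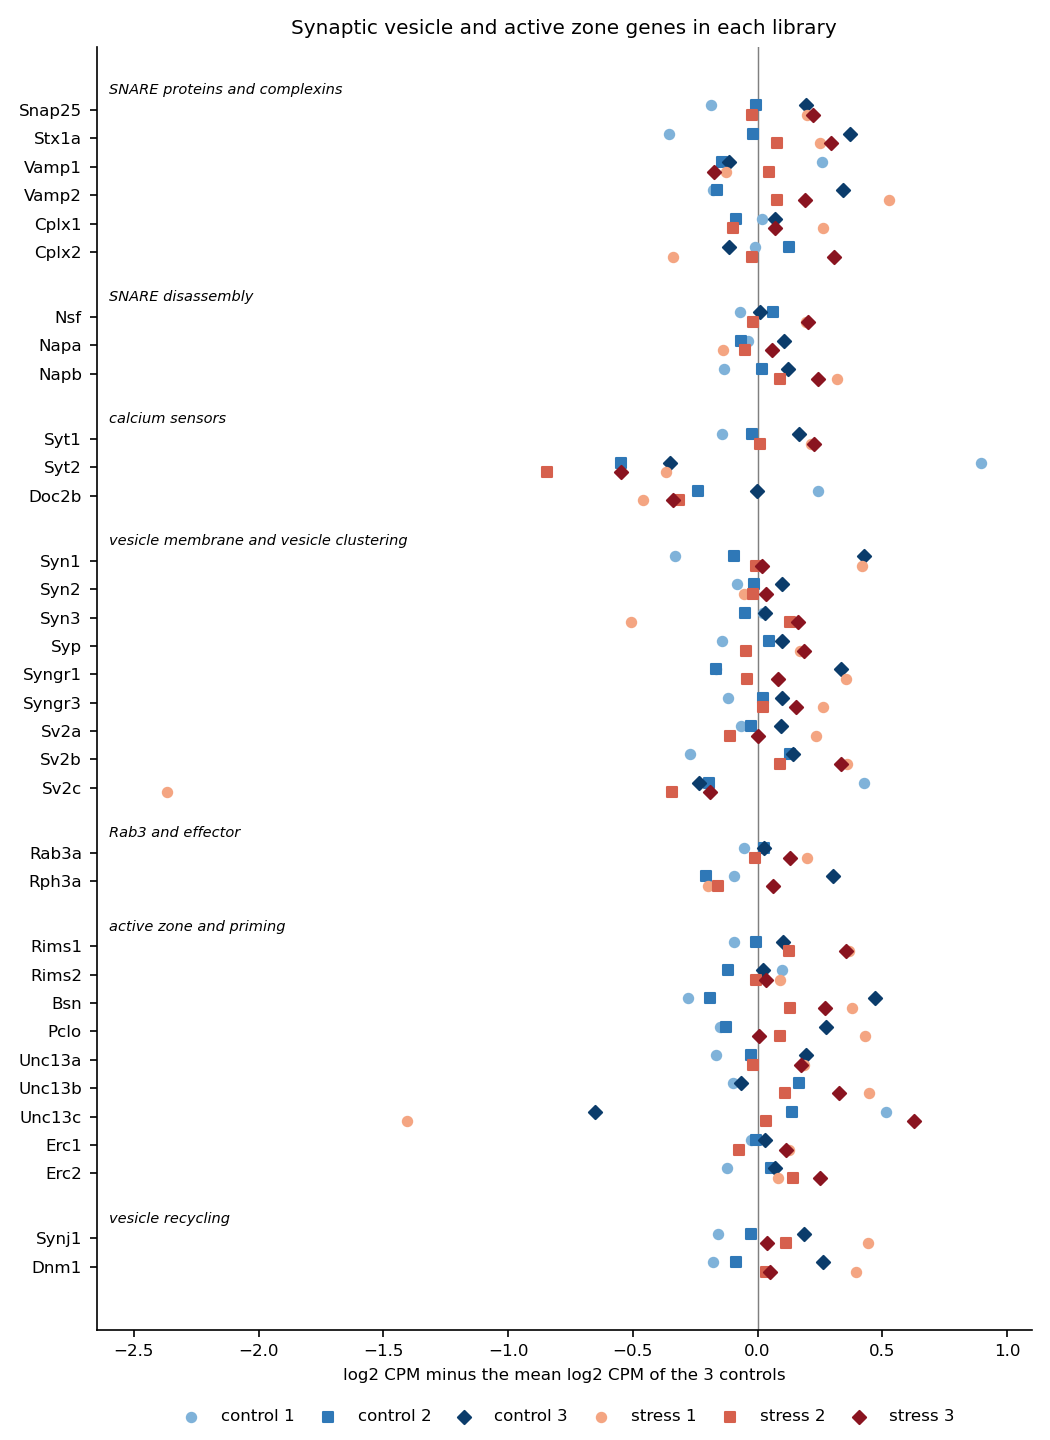
Log2 CPM of each gene in each library relative to the mean of the 3 controls, by role (blue, controls; red, stress). Control 1 lies to the left for most genes and to the right for Syt2, Unc13c, Sv2c, Vamp1 and Doc2b; stress 1 lies far to the left for Sv2c and Unc13c.

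Of the 6 SNARE and complexin genes, 5 had a log2 fold change above 0 and 1 below, the median was 0.11, and none of the 6 had separate groups. Snap25, the plasma membrane SNARE with the most counts in this set, was at 1459, 1652 and 1899 CPM in controls 1 to 3 and 1905, 1633 and 1937 CPM in stress 1 to 3. Control 3 lay close to the upper stress libraries and the groups overlapped (log2 fold change 0.13 ± 0.11 SE, 95% interval -0.13 to 0.38). The Snap25 value was 0.04 without control 1, 0.23 without control 3 and 0.01 without control 1 and stress 1. Stx1a, the syntaxin partner of Snap25, stood at 155 ± 39.0 CPM across controls, against 176 ± 13.6 CPM across stress libraries (SD, n = 3 in each group; later means are given in the same way, controls first). Vamp2, the main vesicle SNARE of forebrain synapses, read 216, 219 and 310 CPM across controls 1 to 3, against 353, 258 and 280 CPM across stress 1 to 3. Stress 1 was the highest library and control 3 lay among the stress libraries. Vamp1, its relative better known from spinal cord and brainstem, read 66.7, 50.5 and 51.5 CPM across controls 1 to 3, against 51.1, 57.5 and 49.4 CPM across stress 1 to 3. Control 1 stood apart as the highest, and without it the log2 fold change of Vamp1 went from -0.09 to 0.05. The complexins, small proteins that clamp and then promote fusion, differed in their spread: Cplx1 was at 175 ± 9.62 and 185 ± 23.2 CPM, and Cplx2 at 865 ± 72.7 and 866 ± 192 CPM, with its lowest value, 682 CPM, in stress 1 and its highest, 1065 CPM, in stress 3.

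The SNARE disassembly genes are those for the ATPase NSF and for its adaptors alpha-SNAP (Napa) and beta-SNAP (Napb). Nsf read 924, 1014 and 977 CPM across controls 1 to 3, against 1110, 959 and 1117 CPM across stress 1 to 3. Stress 2 lay among the controls and the other stress libraries above them (log2 fold change 0.13 ± 0.08, SE). Napb, the brain-enriched adaptor, read 715, 794 and 854 CPM across controls 1 to 3, against 980, 837 and 929 CPM across stress 1 to 3. Its log2 fold change was 0.22 ± 0.09 with a 95% interval of 0.01 to 0.42, and the groups overlapped only in that control 3 exceeded stress 2 (unadjusted p = 0.0437, adjusted p = 0.997, edgeR). Napa, the widely expressed adaptor, read 139, 137 and 154 CPM across controls 1 to 3, against 130, 138 and 149 CPM across stress 1 to 3 (log2 fold change -0.04 ± 0.08, SE). Without control 1 and stress 1 the Napb value was 0.10.

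Among the calcium sensors the log2 fold change was above 0 for the abundant Syt1 and below 0 for the scarce Syt2 and Doc2b. Syt1, the sensor for fast release in forebrain neurons, read 1379, 1498 and 1706 CPM across controls 1 to 3, against 1764, 1530 and 1781 CPM across stress 1 to 3. Each stress library was above the controls of like choroid plexus level, but the groups overlapped (log2 fold change 0.15 ± 0.10, SE). Syt2, the fast sensor known from hindbrain and from fast-spiking interneurons, had 410, 155 and 168 counts across controls 1 to 3, against 166, 121 and 151 counts across stress 1 to 3. Control 1 was more than 2 times any other library. Its log2 fold change of -0.72 ± 0.42 rested on control 1, the library with the highest striatal, inhibitory and oligodendrocyte markers, and was -0.12 without it. Inhibitory neuron markers, 8 of 8 detected in every library, summed to 929, 675 and 615 CPM in controls and 484, 586 and 632 CPM under stress, with 7 of the 8 lower on average. Oligodendrocyte markers, 14 of 14 detected throughout, ran from 2339 to 3704 CPM in controls and from 1832 to 2631 CPM under stress, and fast-spiking neuron markers, 8 of 8 detected, from 520 to 588 and from 528 to 660 CPM. Their part in the Syt2 and Doc2b values was not tested. Doc2b, a sensor with high calcium affinity linked to spontaneous and delayed release, read 55.7, 39.9 and 47.1 CPM across controls 1 to 3, against 34.3, 37.9 and 37.3 CPM across stress 1 to 3. All 3 stress libraries lay below all 3 controls (log2 fold change -0.38 ± 0.12 SE, 95% interval -0.66 to -0.10, unadjusted p = 0.0136, adjusted p = 0.997, edgeR). Without control 1 the Doc2b value was -0.25, and without control 1 and stress 1 it was -0.21.

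Of the 9 genes for vesicle membrane and clustering proteins, 6 had a log2 fold change above 0 and 3 below, the median was 0.10, and none had separate groups. Syp, the membrane protein synaptophysin and the most counted of the set, read 979, 1116 and 1155 CPM across controls 1 to 3, against 1216, 1045 and 1230 CPM across stress 1 to 3. Its groups overlapped through stress 2 (log2 fold change 0.10 ± 0.09, SE). The synapsins, which tether vesicles in the reserve pool, gave no common direction. Syn1 read 139, 164 and 236 CPM across controls 1 to 3, against 235, 174 and 177 CPM across stress 1 to 3. Control 3 and stress 1 were the high libraries, and the log2 fold change of 0.12 ± 0.22 was -0.03 without control 1 or without stress 1. Syn2 read 655, 686 and 743 CPM across controls 1 to 3, against 667, 685 and 711 CPM across stress 1 to 3, the narrowest range of all members from lowest to highest library (1.13-fold). Syn3 was at 41.3 ± 1.31 and 40.1 ± 9.62 CPM, with stress 1 the lowest library at 29.0 CPM. The synaptogyrins, relatives of synaptophysin, were both higher on average: Syngr1 at 488 ± 102 and 531 ± 76.6 CPM, and Syngr3 at 145 ± 10.8 and 160 ± 13.4 CPM.

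The SV2 genes encode transporter-like glycoproteins of the vesicle membrane that also serve as entry receptors for botulinum toxin A. Sv2b, found mainly in glutamatergic neurons, was at 853 ± 132 CPM in controls, against 1015 ± 101 CPM in stress libraries (log2 fold change 0.25 ± 0.13 SE, 95% interval -0.04 to 0.55). Without control 1 the Sv2b value was 0.13, and without control 1 and stress 1 it was 0.08. The broadly expressed Sv2a read 357, 367 and 399 CPM across controls 1 to 3, against 440, 346 and 375 CPM across stress 1 to 3, with the groups interleaved. Sv2c, which is enriched in striatum and pallidum, read 74.9, 48.7 and 47.3 CPM across controls 1 to 3, against 10.8, 43.9 and 48.8 CPM across stress 1 to 3. Sv2c was thus highest in control 1 and lowest in stress 1, a 6.95-fold range and the widest of all members. These are the libraries with the highest and the lowest summed striatal markers, 1923 and 290.0 CPM, and all 15 of those markers had a negative log2 fold change. The part of the striatal markers in the Sv2c values was not tested. The Sv2c value was -0.72 ± 0.58 over all libraries, -0.30 without stress 1 and -0.05 without control 1 and stress 1.

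Rab3a, the vesicle GTPase that recruits effectors to the docked vesicle, read 326, 345 and 345 CPM across controls 1 to 3, against 388, 336 and 370 CPM across stress 1 to 3. Stress 2 lay among the controls (log2 fold change 0.11 ± 0.07, SE). Rph3a, which encodes the Rab3 effector rabphilin, was at 201 ± 38.7 and 186 ± 18.4 CPM, a log2 fold change of -0.11 ± 0.14.

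The 9 active zone and priming genes encode the scaffold that places vesicles opposite calcium channels, and 8 of the 9 had a log2 fold change above 0 (median 0.16). Rims1, the central RIM scaffold that binds Rab3, Munc13 and calcium channels, read 326, 347 and 374 CPM across controls 1 to 3, against 449, 381 and 446 CPM across stress 1 to 3. All 3 stress libraries lay above all 3 controls, and the log2 fold change was 0.28 ± 0.09 (SE, 95% interval 0.08 to 0.49, unadjusted p = 0.0113, adjusted p = 0.997, edgeR). Its value stayed between 0.18 and 0.36 under all 19 alternatives run. The related Rims2 differed little, at 238 ± 18.2 and 245 ± 8.44 CPM. Erc2, the neuronal ELKS protein that binds RIM, read 323, 364 and 368 CPM across controls 1 to 3, against 371, 387 and 417 CPM across stress 1 to 3. The groups did not overlap, with a narrow gap between control 3 and stress 1 that was lost when counts were scaled by library size alone (log2 fold change 0.16 ± 0.08 SE, unadjusted p = 0.0766, adjusted p = 0.997, edgeR). Erc1, the more widely expressed ELKS gene, was at 105 ± 2.10 and 109 ± 8.38 CPM.

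The Munc13 genes encode the priming factors that open syntaxin for SNARE assembly. Unc13b (Munc13-2) read 104, 125 and 106 CPM across controls 1 to 3, against 152, 120 and 140 CPM across stress 1 to 3. Control 2 exceeded stress 2, so the groups overlapped (log2 fold change 0.30 ± 0.11 SE, 95% interval 0.05 to 0.54, unadjusted p = 0.0234, adjusted p = 0.997, edgeR). Without control 1 and stress 1 the Unc13b value was 0.17, and within the libraries of high choroid plexus markers it was 0.07. Unc13a (Munc13-1), the main priming factor of glutamatergic synapses, read 345, 381 and 443 CPM across controls 1 to 3, against 441, 383 and 437 CPM across stress 1 to 3. Control 3 was the highest library and the groups overlapped (log2 fold change 0.11 ± 0.10, SE). Unc13c (Munc13-3), best known from cerebellar granule cells, read 172, 132 and 76.2 CPM across controls 1 to 3, against 45.3, 123 and 185 CPM across stress 1 to 3. Its low libraries were stress 1 and control 3 and its high ones stress 3 and control 1, so the 4.09-fold range ran across both groups (log2 fold change -0.10 ± 0.60, SE). Pclo, one of the giant cytomatrix proteins and the most counted of this set, read 641, 653 and 862 CPM across controls 1 to 3, against 958, 758 and 715 CPM across stress 1 to 3. Its relative Bsn was at 525 ± 158 and 613 ± 52.2 CPM, with control 3 the highest library at 707 CPM.

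The RefSeq promoter table (GRCm38.p6) held 28 of the 34 members. The 250 bases before the start are shown for the members with separate groups or an unadjusted p under 0.05, since these are the members whose difference is described in most detail (the fifth is Doc2b). Capitals mark the GC box GGGCGG on either strand (CCGCCC as printed where it lies on the other one), the letters that the factor Sp1 binds.
Rims1, chr1:22806159-22806408, minus strand: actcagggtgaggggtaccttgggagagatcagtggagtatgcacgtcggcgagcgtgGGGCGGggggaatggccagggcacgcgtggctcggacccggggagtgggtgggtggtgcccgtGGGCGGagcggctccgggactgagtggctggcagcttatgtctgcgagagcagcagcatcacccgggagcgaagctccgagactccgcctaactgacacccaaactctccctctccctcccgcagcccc
Erc2, chr14:27622157-27622406, plus strand: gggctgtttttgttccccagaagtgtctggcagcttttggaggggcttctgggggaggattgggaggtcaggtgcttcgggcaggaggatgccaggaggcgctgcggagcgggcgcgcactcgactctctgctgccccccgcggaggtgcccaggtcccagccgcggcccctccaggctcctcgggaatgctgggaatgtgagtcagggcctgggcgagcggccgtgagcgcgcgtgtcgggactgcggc
Unc13b, chr4:43058703-43058952, plus strand: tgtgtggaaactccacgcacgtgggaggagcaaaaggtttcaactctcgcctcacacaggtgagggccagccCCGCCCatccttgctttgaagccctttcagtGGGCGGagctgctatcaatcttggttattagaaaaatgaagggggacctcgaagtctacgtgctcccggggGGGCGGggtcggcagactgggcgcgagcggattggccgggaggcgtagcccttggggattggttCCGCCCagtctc
Napb, chr2:148732421-148732670, minus strand: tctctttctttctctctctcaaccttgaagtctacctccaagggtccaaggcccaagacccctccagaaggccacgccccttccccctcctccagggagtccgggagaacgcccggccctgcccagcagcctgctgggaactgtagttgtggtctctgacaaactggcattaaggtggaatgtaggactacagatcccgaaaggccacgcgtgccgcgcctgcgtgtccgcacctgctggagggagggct
Rims1 held 2 matches and Unc13b 4, and Erc2 and Napb held 0 in this window. GGGCGG was found in 20 of the 28 members with a promoter (71.4%), against 62.7% of 11527 tested genes with one. For 3 other motifs, each searched on both strands, CCAAT was found in 10 members (35.7%, against 40.1%), TATAAA in 1 member, Sv2b (3.57%, against 8.06%), and the cAMP response element TGACGTCA in 1 member, Syn1 (3.57%, against 3.02%). The median GC content of the window was 63.2% in members and 61.2% in tested genes.

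The recycling genes were Dnm1, the neuronal dynamin that cuts vesicles from the membrane, and Synj1, the phosphatase that strips their coat. Dnm1 read 520, 555 and 707 CPM across controls 1 to 3, against 774, 601 and 609 CPM across stress 1 to 3. Stress 1 and control 3 were the high libraries and the groups overlapped (log2 fold change 0.16 ± 0.15, SE). Synj1 stood at 452 ± 55.1 and 520 ± 79.8 CPM, a log2 fold change of 0.20 ± 0.13 that was -0.01 without control 1 and stress 1.

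Ratios of the counts of related members within a library do not depend on library size, and 13 such ratios were compared by an exact two-sided permutation test over the libraries, for which 0.1 is the smallest p that 3 against 3 allows. In 3 of the 13 all stress libraries lay above all controls, each with p = 0.1 (adjusted p = 0.433 over the 13, exact permutation). The ratio of Rims1 to Rims2 counts was 1.28, 1.58 and 1.55 in controls and 1.77, 1.61 and 1.83 under stress. The Napb to Napa ratio was 5.13, 5.81 and 5.54 in controls and 7.53, 6.05 and 6.22 under stress. The Syt1 to Syt2 ratio was 33.9, 99.6 and 99.3 in controls and 104, 126 and 119 under stress, with control 1 far below every other library. These log2 differences depended on single libraries: Rims1 to Rims2 went from 0.24 to 0.15 without control 1, Napb to Napa from 0.26 to 0.16 without stress 1, and Syt1 to Syt2 from 0.73 to 0.22 without control 1. Without control 1 and stress 1 they were 0.13, 0.11 and 0.30. The remaining 10 ratios overlapped between groups. The Vamp2 to Vamp1 ratio was 3.24, 4.33 and 6.02 in controls and 6.90, 4.49 and 5.66 under stress (p = 0.4, exact permutation), and the Sv2c to Sv2a ratio was 0.0245 in stress 1 against 0.119 to 0.210 elsewhere. The Unc13a to Unc13c ratio ran from 2.01 in control 1 to 9.74 in stress 1, and the Syn1 to Syn2 ratio from 0.212 in control 1 to 0.351 in stress 1.

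**Figure D5:**
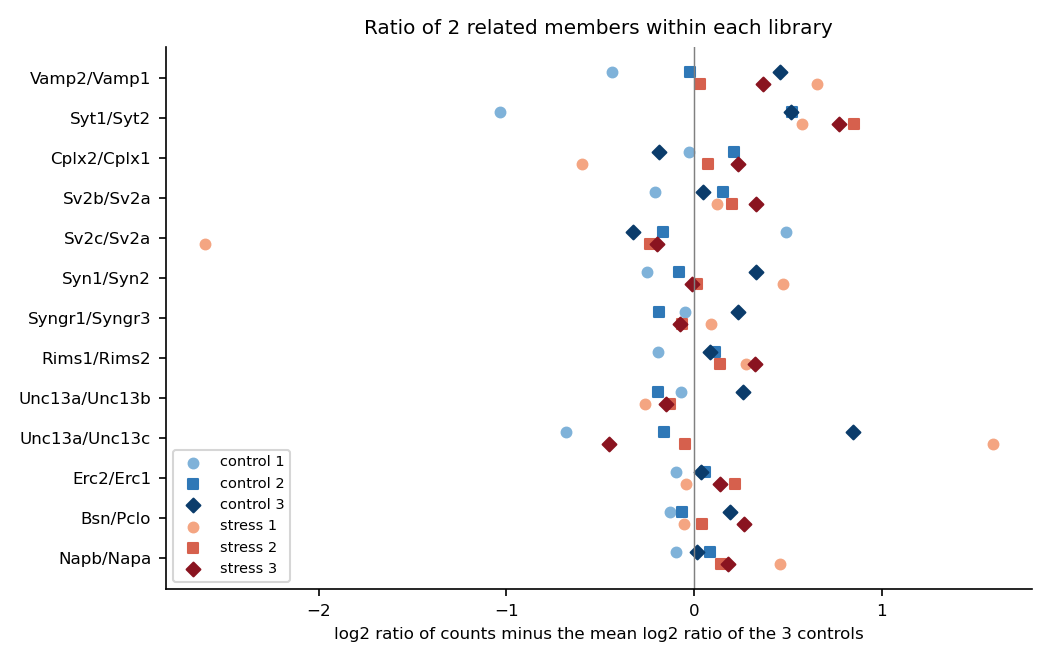
Log2 ratio of the counts of 2 related genes in each library, relative to the mean of the 3 controls (blue, controls; red, stress). Stress libraries lie to the right of every control for Syt1/Syt2, Rims1/Rims2 and Napb/Napa; stress 1 is far out for Sv2c/Sv2a and Unc13a/Unc13c, and control 1 for Syt1/Syt2.

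Beyond the members, 145 other genes of the pathway were listed in 7 groups, and 135 were tested. None passed the test over all genes (edgeR), 79 had a log2 fold change above 0 and 56 below (58.5% above), and the median was 0.04. Before adjustment, 3 were higher and 1 lower with p under 0.05 (2.96% of the 135, against 3.37% of all tested genes). The groups were separate in 7, of which 5 were above and 2 below (5.19%, against 8.28% of all tested genes). Both shares were no larger than the background, and the genes named below are examples by the smallest p. Among 31 other SNAREs and regulators 18 were higher, with the endosomal syntaxin Stx12 at 115 ± 2.14 CPM in controls, against 131 ± 5.43 CPM in stress libraries and Snapin, a SNAP-25 binding protein, between 31.7 and 38.0 CPM in controls and between 38.5 and 40.8 CPM under stress; both had separate groups. Among 14 other synaptotagmin and Doc2 genes 8 were higher, with Syt12 at 31.1 ± 2.80 and 25.3 ± 2.92 CPM and Syt17 at 78.9 ± 12.9 and 101 ± 13.0 CPM, again without overlap. Other vesicle proteins were higher in 11 of 21, with Syngr2 at 7.08 ± 0.760 and 5.07 ± 1.66 CPM and the Rab27 effector Sytl5 at 29.8 ± 6.17 and 21.0 ± 6.09 CPM.

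Of 19 other active zone genes 10 were higher, with Rims3, which encodes a short RIM protein, at 104 ± 23.1 and 77.7 ± 11.7 CPM. Baiap3, a Munc13 relative of dense-core vesicle traffic, read 97.1, 73.4 and 57.5 CPM across controls 1 to 3, against 17.9, 53.3 and 55.6 CPM across stress 1 to 3, with stress 1 far below the rest. Recycling genes were higher in 18 of 28, with Sh3gl3 (endophilin A3) at 40.1 ± 6.91 and 33.9 ± 5.86 CPM and the clathrin adaptor Ap2a2 at 382 ± 20.4 and 406 ± 6.54 CPM. The subunits of the vesicle proton pump, which powers transmitter uptake, had the narrowest range of log2 fold changes of the 7 groups, from -0.09 to 0.10 with 11 of 17 above 0, with Atp6v1g1 at 35.2 ± 1.31 and 33.1 ± 1.04 CPM and Atp6v1a at 715 ± 27.6 and 751 ± 11.3 CPM. Of the 5 tested vesicular transporters 3 were higher. The vesicular GABA transporter Slc32a1 read 57.7, 35.1 and 38.2 CPM across controls 1 to 3, against 20.2, 29.5 and 35.8 CPM across stress 1 to 3, and the vesicular glutamate transporter Slc17a7 read 719, 934 and 1085 CPM, against 1184, 973 and 1110 CPM. Slc17a7 had the same 3 libraries at the bottom as 17 of the members, and Slc32a1 had its extremes in control 1 and stress 1.

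The number of members with separate groups changed with single libraries. Without control 3 or without stress 2 the groups did not overlap in 14 members, where 23.3% and 22.3% of all tested genes did not overlap. The members' median log2 fold change stayed between 0.06 and 0.18 when single libraries were left out, against 0.11 over all libraries. Without control 1 and stress 1 together the median was 0.01, with 20 members higher.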

How the data were processed

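Counts per gene symbol were deposited by the authors as raw counts, 1 file per library, not normalized. Per the submitters' processing notes, the tools were STAR 2.7.7a, edgeR 3.42.4, HTSeq 0.13.5 and FastQC 0.12.1 and the build was mm39, with no roles stated. The annotation and strand setting were not given in the sources, so reads of overlapping antisense genes cannot be told apart. Rows that name no gene were left out: reads without a gene were 53.0 to 57.4%, ambiguous reads 0.162 to 0.194% and multiply aligned reads 6.97 to 8.16%.

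The members and lists were chosen with earlier results of these data known. Genes were kept by filterByExpr (minimum count 10, minimum total 15), which left 14739. CPM use TMM-scaled library sizes (factors 0.983 to 1.02). The test was edgeR 4.0.16's robust quasi-likelihood test in R 4.3.3, stress minus control, over 3 and 3 libraries, adjusted over all genes at 0.05. Each SE is the size of the fitted log2 difference divided by the root of its F statistic. Alternatives used limma 3.58.1 and DESeq2 1.42.0; permutations used scipy 1.17.1. The procedure was tested on simulated data. These held no tissue differences within a group and larger planted changes than most members had, so they do not cover data like these. Exon lengths are from GENCODE M21. By the rule for named genes, all members are named, and in each pathway list the 2 genes with the smallest p; library values are given for members past 0.05 unadjusted, with separate groups, in pairs of opposite sign or most counted in their role, and for others where a range is described.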

Additional observations from a re-analysis of the deposited data

How the results depend on the processing

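No member passed the adjusted threshold in any of the 19 alternatives. Over all genes, 4 passed in edgeR's likelihood ratio test, 2 in DESeq2 and 1 in the libraries with high choroid plexus markers, against 0 in the quasi-likelihood test (496 at an unadjusted p under 0.05); leaving out single libraries gave 0 to 1. Members with separate groups numbered 3, and 2 with library size alone, where Erc2 overlapped. They numbered 3 to 14 when single libraries were left out (14.1% of all tested genes without control 1, where the count was 3, and 23.3% without control 3, where it was 14), 5 without control 1 and stress 1 together (24.9%), 23 in the libraries with low and 22 in those with high choroid plexus markers, where fewer libraries make separation commoner (61.6% and 68.0% of all tested genes). The median of the members was 0.11, and 0.06 to 0.18 when single libraries were left out, 0.01 without control 1 and stress 1, 0.03 in the low and 0.07 in the high choroid plexus libraries.

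Of the 34 members, 13 kept their direction in every alternative, among them Rims1, Erc2, Unc13b, Napb and Doc2b, and 21 turned in at least 1. For these the cause was not tested. Cplx2 (0.00) was -0.02 with library size alone, with limma-voom and with the replicate block. Without control 1 and stress 1, values were 0.07 for Vamp1, -0.01 for Cplx1, Unc13a and Synj1, -0.18 for Syn1, 0.16 for Syn3, -0.08 for Syngr1, -0.09 for Sv2a, -0.04 for Pclo, 0.56 for Unc13c and -0.06 for Dnm1. In the low choroid plexus libraries they were -0.10 for Stx1a, -0.19 for Syn1, -0.11 for Syngr1, -0.14 for Bsn, -0.04 for Pclo, -0.01 for Unc13a, 0.60 for Unc13c and -0.03 for Dnm1. In the high ones they were -0.06 for Cplx1 and Erc1, -0.08 for Cplx2, -0.02 for Nsf, 0.0023 for Napa, 0.03 for Syn2, 0.14 for Syn3, -0.0033 for Syp, -0.07 for Sv2a and -0.0021 for Rims2. Leaving out single libraries turned Vamp1 (-0.16 to 0.05), Cplx1 (-0.01 to 0.17), Cplx2 (-0.18 to 0.15), Napa (-0.10 to 0.01), Syn1 (-0.03 to 0.36), Syn2 (-0.05 to 0.04), Syn3 (-0.16 to 0.14), Sv2a (-0.05 to 0.13), Rph3a (-0.20 to 0.06), Rims2 (-0.01 to 0.09) and Unc13c (-0.59 to 0.28). Also without single libraries, Syngr1 ran from 0.00 to 0.31, Pclo ran from 0.04 to 0.32, Unc13a ran from 0.03 to 0.21, Synj1 ran from 0.07 to 0.30 and Dnm1 ran from 0.03 to 0.30. The ranges of other members that kept their sign without single libraries were Stx1a (0.02 to 0.39), Vamp2 (0.11 to 0.45), Nsf (0.09 to 0.20), Napb (0.15 to 0.28), Syt1 (0.08 to 0.23), Syt2 (-0.97 to -0.12), Doc2b (-0.49 to -0.25), Syp (0.04 to 0.18), Syngr3 (0.09 to 0.21), Sv2c (-1.06 to -0.30), Rab3a (0.06 to 0.17), Bsn (0.09 to 0.50), Unc13b (0.22 to 0.39), Erc1 (0.02 to 0.12) and Erc2 (0.10 to 0.19). Among them, Stx1a, Nsf, Syp, Bsn and Erc1 turned in the choroid plexus fits given above.

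Of the count ratios (log2, stress minus control), Vamp2/Vamp1 was -0.02 without control 1 and stress 1 (0.13 to 0.58 without single libraries), Cplx2/Cplx1 0.14 (-0.26 to 0.16), Sv2c/Sv2a 0.03 (-1.42 to -0.21), Syn1/Syn2 -0.13 (-0.0029 to 0.32) and Unc13a/Unc13c -0.59 (-0.25 to 0.79). Syngr1/Syngr3 ran from -0.11 to 0.10 and Bsn/Pclo from -0.01 to 0.18 without single libraries. The deviations of same-numbered libraries correlated at -0.32, 0.53 and 0.28, and those of control 3 and stress 1 at 0.48. Such deviations also carry differences in dissected tissue, so they cannot decide whether the numbers pair the libraries. With the replicate block 0 genes passed, 24 members were higher and the median was 0.12; over 3 pairs the exact sign-flip test of a ratio cannot go below 0.25. Counting error is widest for Sv2c in stress 1, with 105 counts.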

Other observations

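Markers of other cell types, summed over the genes tested, differed less between libraries than the choroid plexus and striatal ones. Pan-neuronal markers summed to 5436 to 5581 CPM in controls and 5324 to 5912 CPM in stress libraries, with 7 of 10 above 0 in log2 fold change and a median of 0.05. Microglia markers, the resident immune cells, ran from 427 to 474 CPM in controls and 422 to 440 CPM in stress libraries (8 of 10 below 0, median -0.03). Endothelial markers ran from 260 to 320 CPM and from 256 to 264 CPM (8 of 10 below 0, median -0.20). Astrocyte markers ran from 6179 to 6780 CPM and from 5771 to 6650 CPM (9 of 10 below 0, median -0.14). Thalamic markers ran from 268 to 280 CPM and from 273 to 400 CPM, with the highest sum in stress 3, and 4 of 7 tested were above 0.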
